A study of Mus musculus with 4 samples.

Results

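Class 13 is a small group of nuclei that the authors' clustering of chromatin accessibility set apart and left with a number only. Its members were taken as every nucleus carrying class 13 in the deposited table of transcription factor motif scores, and there were 114 of them among 7846 nuclei. The 4 libraries came from wild-type mice of the CD1 strain: 2 were made from the fetal mammary gland at embryonic day 18 and 2 from the adult gland at 8 weeks of age. In all 4, cells were sorted as EpCAM+ and Lin-, that is, epithelial cells without the surface markers of the excluded lineages, so the nuclei all passed the same gate. Single-nucleus ATAC-seq was then run, an assay in which the Tn5 transposase cuts open chromatin and a combination of well barcodes marks each nucleus. Class 13 held 40 of 882 nuclei in the first fetal library and 66 of 1695 in the second, against 6 of 2465 and 2 of 2804 in the adult libraries. The values below therefore describe the 106 fetal nuclei of class 13, each library set beside its own other fetal nuclei, and the 8 adult nuclei are given apart. Only values over all libraries, ranks among the 14 classes and correlations with other classes take in those 8 as well.

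The mammary epithelium has an outer basal layer, marked by Krt14 and the transcription factor p63 (Trp63), and an inner luminal layer. Luminal cells divide into progenitors, which express milk protein genes such as Csn3 early, and hormone-sensing mature luminal cells, which express the oestrogen receptor Esr1, the progesterone receptor Pgr and Foxa1. Foxa1 is a forkhead pioneer factor: it binds its sites in closed chromatin and opens them for other factors, among them the oestrogen receptor. Before birth the gland is a rudiment in which these lineages are not yet fully separated, and Sox9 and Sox10 are known factors of such progenitor-like cells. A motif score from chromVAR says how far the open regions that hold a factor's DNA motif exceed or fall short of background regions in a nucleus, so it reads the motif and not the factor, and factors of a family with like motifs get like scores.

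The working markers of the class were Ctss, which encodes the lysosomal protease cathepsin S of antigen-presenting cells, and Lgals4, which encodes an intestinal epithelial galectin. Accessibility of a gene was read as the sum of reads over its span with 2000 bases on either side, scaled to a total of 1000000 reads in all gene spans (CPM). Ctss had 4 reads in the first and 19 reads in the second fetal library, which was 17.5 and 41.2 CPM against 3.64 and 6.30 CPM in the other fetal nuclei. Those reads came from 2 nuclei in each library. Lgals4 had 8 and 19 reads, or 35.0 and 41.2 CPM against 13 and 11.0 CPM, from 1 nucleus and 3 nuclei. Both genes lay above the other fetal nuclei in both libraries, but each rested on 4 of 106 nuclei and was under the minimum of 30 reads set for a call. Counted once per nucleus, Lgals4 differed from the other nuclei by -0.025 on the log2 scale. With reads in 4 of 106 nuclei each, neither gene describes the class as a whole.

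Forkhead motifs set class 13 apart from the other fetal nuclei in both libraries. A motif was called when its mean score differed by at least 1 unit in the same direction in both fetal libraries. By that rule 22 of 427 motif columns (5.15%) were higher and 9 (2.11%) were lower. All 22 higher columns were named for Fox factors, out of 23 Fox columns in the table, and because several columns hold identical scores they amounted to 15 distinct sets of scores. Foxq1 was the one Fox column below the threshold. Across the 427 columns the differences in the 2 fetal libraries had r = 0.943, a description of motifs that share reads and sequences. The authors made the classes from these same nuclei, so these values and all others that set class 13 beside the rest describe it and are not tested.

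The Foxa1 motif gave the largest difference. Its mean score in class 13 was 3.19 in the first fetal library and 3.37 in the second, against -1.78 and -2.21 in the other fetal nuclei, a difference of 4.96 and 5.59 score units. Nucleus by nucleus the scores ran from -0.459 through a median of 2.91 to 8.20 in the first library, and from -1.54 through 3.04 to 8.54 in the second. They were above 0 in 39 of 40 and in 62 of 66 nuclei, so the high mean was carried by nearly every nucleus. The converse did not hold: of 241 fetal nuclei with a Foxa1 score above 0, 101 (41.9%) were in class 13. Above a score of 4 there were 43 fetal nuclei, of which 39 (90.7%) were in class 13 and the other 4 were in class 11.

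**Figure D1:**
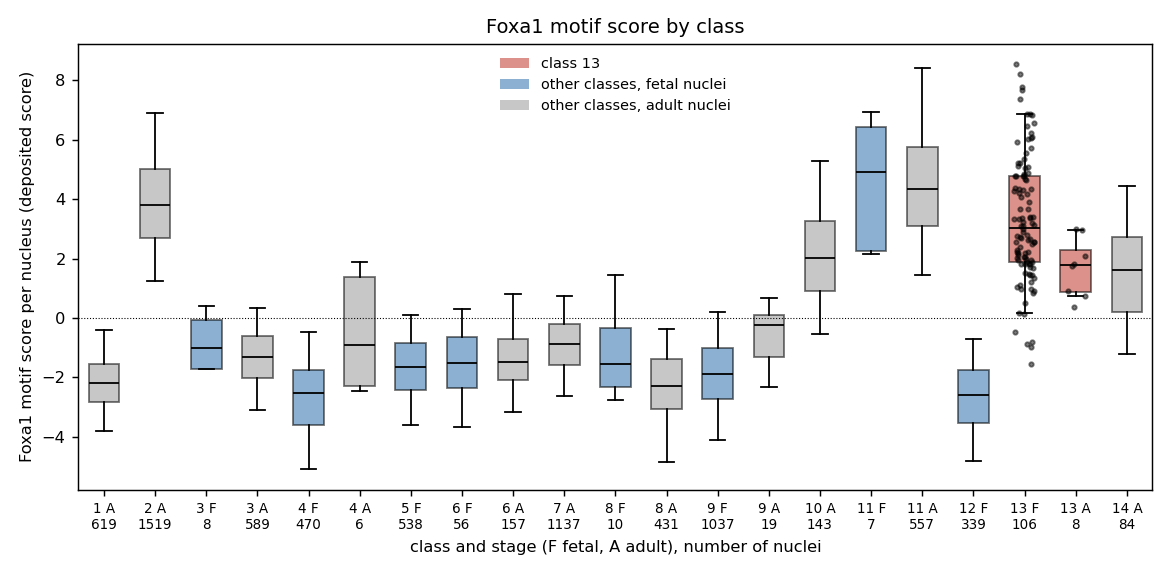
Foxa1 motif score of single nuclei (y axis, chromVAR score units) by class and stage (x axis, F fetal and A adult, with the number of nuclei), where boxes span the quartiles, the line is the median, whiskers run from the 5th to the 95th percentile, and points are the class 13 nuclei. The medians of fetal class 13, 2.91 and 3.04 in the 2 libraries, lie above the fetal median of every other class shown but class 11, and in the range of adult classes 2 and 11. Single nuclei overlap those of other classes, and fetal class 2, with 3 nuclei and a median of 3.00, is not drawn.

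The other Fox motifs followed in size. Foxc1 had means of 2.34 and 2.59 against -1.20 and -1.62, a difference of 3.54 and 4.21. Foxa3, a second member of the Foxa subfamily, differed by 2.97 and 3.73, Foxp1 by 2.36 and 3.11, Foxi1 by 1.94 and 2.48, and Foxf2 by 2.09 and 2.21. The shared Foxc2 and Foxs1 scores differed by 3.39 and 4.17, and the shared Foxn2 and Foxj3 scores by 2.10 and 2.35. Which of these factors, if any, occupies the sites cannot be read from motif scores.

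The 9 lower motifs were 7 of the 12 Sox columns and the p53-family motifs Trp63 and Trp73. Sox9, a factor of fetal mammary progenitors, had means of -0.515 and -0.805 in class 13 against 1.14 and 1.29 in the other fetal nuclei. Sox4 differed by -1.94 and -1.78, Sox12 by -1.48 and -1.75, and Sox8 by -1.30 and -1.31, and Sox11, Sox21 and Sox2 completed the 7. Trp63, the basal master regulator, had means of -1.20 and -1.16 against 0.141 and 0.488. Trp73 differed by -1.03 and -1.69. Sox13 was among the 10 lowest but short of the threshold.

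Of the 47 motifs on a list of blood, stromal and mammary factors, 31 had a column, and 1 (Foxa1) was higher and 2 (Sox9 and Trp63) were lower, beside 5.15% higher and 2.11% lower over all columns. The Esr1 motif, which the oestrogen receptor binds, had means of -0.441 and -0.550 against -0.587 and -0.786, so it was not set apart. Elf5, of the alveolar luminal lineage, differed by -0.10 and 0.05, Runx1 by -0.32 and -0.33, and Nfix by -0.82 and -0.77. Ctcf, which marks the insulator motif, had means of 0.929 and 1.28 against 0.265 and -0.0490, and its mean was the highest of the 14 classes, although the difference in the first library was under 1 unit. Fos, an AP-1 subunit, varied widely within the class: its scores ran from -12.3 to 6.46 in the first library and from -13.7 to 6.92 in the second, with standard deviations over nuclei of 3.74 and 3.91. The Foxa1 score had standard deviations of 1.86 and 2.28. Scores of different motifs can differ in their general spread, and the Fos spread of other classes was not set beside these, so the 2 are not ranked. Over fetal nuclei the quartiles of the Foxa1 score were 1.88 and 4.78 in class 13, and -2.74 and -1.02 in class 9. Class 13 was thus not the more uniform of these classes in its Foxa1 score.

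**Figure D2:**
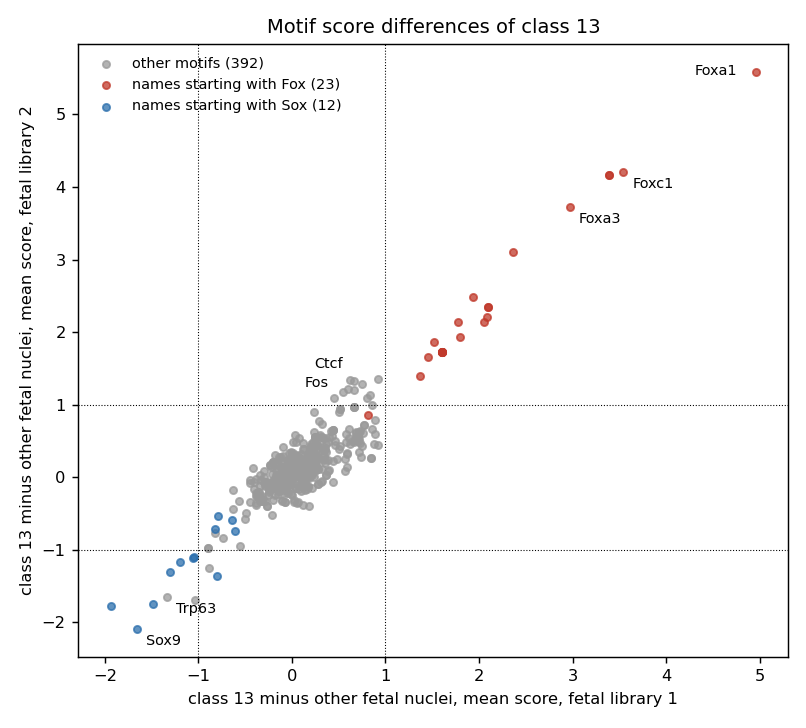
Difference in mean motif score between class 13 and the other fetal nuclei, first fetal library on the x axis and second on the y axis (chromVAR score units), 1 point for each of the 427 motif columns, with dotted lines at the 1-unit threshold. Fox motifs lie at the upper right, led by Foxa1 at 4.96 and 5.59, and Sox motifs with Trp63 lie at the lower left.

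The Foxa1 gene itself was more accessible in class 13. Its span is chr12:57540628-57548029 (GRCm38.p6, minus strand). It held 54 and 105 reads, from 15 of 40 and 25 of 66 nuclei, which was 236 and 228 CPM against 66.2 and 66.8 CPM in the other fetal nuclei. The mean ratio was 3.42-fold, and the 2 library ratios were 1.81 and 1.74 on the log2(CPM + 2) scale. Over all libraries Foxa1 was at 223 CPM in class 13, the highest of the 14 classes, next to 215 CPM in class 2 and 202 CPM in class 11. The level and the motif score of Foxa1 thus ranked classes 2, 11 and 13 together at the top. In every alternative setting tried, Foxa1 was still called higher.

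A deposited promoter region at chr12:57546120-57547119, inside the Foxa1 span, was among the places that held those reads. It had 26 reads from 9 nuclei in the first fetal library and 59 reads from 21 nuclei in the second, or 88.5 and 96.4 CPM of all reads against 18.8 and 19.2 CPM. Of 34 deposited regions within 150000 bases of the upstream end of the Foxa1 span, 5 had enough reads to be judged, and this promoter was the 1 called higher, at the 2-fold threshold of promoter regions. The other 4 were distal regions, judged at 4-fold, and 2 of them were at least 2-fold higher in both libraries, with smaller log2 ratios of 1.02 and 1.76. The span of Ttc6, a neighbour on chr12:57546704-57737911, overlaps that of Foxa1 and shares its promoter reads, so the high value of Ttc6 (81 and 122 reads, 354 and 264 CPM against 93.0 and 98.2 CPM) cannot be told apart from that of Foxa1.

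The Foxa1 promoter carries a forkhead motif of its own, and it is printed here with the promoters of 3 other regions called higher in class 13 that carry one, taken in the order of their ratio. Each sequence is RefSeq's on GRCm38.p6, runs 5′ to 3′ on the gene's strand from 250 bases before the start to 50 bases after it, and has the match in capitals. The forkhead letters searched, each on both strands, were TGTTTAC as the core form, TATTTAC as the first variant of that core form, and TGTTTGC as the other variant. The Foxa1 promoter is chr12:57546062-57546361 (minus strand), at a start that this table places inside the gene span and not at its upstream end, that of Gfpt2, which encodes an enzyme of hexosamine synthesis, is chr11:49793905-49794204 (plus strand), that of the chemokine gene Cxcl15 is chr5:90794284-90794583 (plus strand), and that of the predicted gene Gm34031, with 2 matches, is chr3:31902125-31902424 (minus strand).
Foxa1: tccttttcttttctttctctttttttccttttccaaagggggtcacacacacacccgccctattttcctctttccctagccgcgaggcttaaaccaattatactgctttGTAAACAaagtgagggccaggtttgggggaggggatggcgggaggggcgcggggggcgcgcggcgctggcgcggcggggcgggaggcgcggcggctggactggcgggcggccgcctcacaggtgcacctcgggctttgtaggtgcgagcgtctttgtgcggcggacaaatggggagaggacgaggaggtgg
Gfpt2: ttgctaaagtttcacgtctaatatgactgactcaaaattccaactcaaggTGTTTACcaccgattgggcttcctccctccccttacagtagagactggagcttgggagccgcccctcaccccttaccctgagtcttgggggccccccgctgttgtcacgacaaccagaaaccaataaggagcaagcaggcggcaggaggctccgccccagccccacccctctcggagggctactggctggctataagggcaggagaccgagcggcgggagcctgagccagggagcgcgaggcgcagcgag
Cxcl15: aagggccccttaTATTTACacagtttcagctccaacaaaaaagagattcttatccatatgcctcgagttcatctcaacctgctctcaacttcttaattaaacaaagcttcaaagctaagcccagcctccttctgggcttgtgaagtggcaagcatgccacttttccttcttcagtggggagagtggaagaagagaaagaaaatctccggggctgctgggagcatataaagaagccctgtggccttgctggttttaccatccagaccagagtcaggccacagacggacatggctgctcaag
Gm34031: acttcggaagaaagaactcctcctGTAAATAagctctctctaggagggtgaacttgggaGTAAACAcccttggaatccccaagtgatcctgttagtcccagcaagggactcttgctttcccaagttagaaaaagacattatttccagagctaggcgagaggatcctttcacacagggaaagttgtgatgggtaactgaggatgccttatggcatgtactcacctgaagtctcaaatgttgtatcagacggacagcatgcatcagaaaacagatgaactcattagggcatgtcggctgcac

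The Gfpt2 promoter region held 9 and 21 reads in class 13, or 30.6 and 34.3 CPM against 6.63 and 7.83 CPM. The Cxcl15 region held 4 and 4 reads and the Gm34031 region 4 and 8, so those 2 rest on few reads. The Gm34031 region is also that of the Kcnmb2 promoter, which held no match, so its reads cannot be told apart between these genes. These letters also occurred outside the regions that stood out: 7 of 60 promoters at regions called higher held one (11.7%), against 3675 of 32851 promoters in the RefSeq table (11.2%) and 416 of 7230 promoters at tested regions (5.75%). The share at called regions was thus close to the first and above the second of these, rests on 7 promoters, and was not tested. A match describes the letters only.

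Across gene spans class 13 differed from the other fetal nuclei at few genes. A gene was called when its ratio was at least 2-fold in the same direction in both fetal libraries and at least 30 reads were observed, or would be at the level of the other nuclei. Of 9373 genes tested among 21883, 58 (0.619%) were higher and 83 (0.886%) were lower. Spans are read counts of 40 and 66 nuclei, with 228501 and 461400 reads in gene spans, and the log2 ratios of the 2 libraries had r = 0.258 across the tested genes, so a single gene's ratio carries a large counting error. Of the 58 higher genes 36 overlap another gene's span and 6 overlap another called gene, and of the 83 lower genes 35 and 4 do. Class 13 had the highest level of the 14 classes at 40 of the 58 and the lowest at 37 of the 83, as the choice of these genes favours, beside 1562 and 660 of all 9373 tested genes. With each nucleus counted once per gene, 3 genes were higher and 4 lower, and of the genes named below Foxa1, Gucy2g and Thbs1 kept their calls. The minimum of 30 then counted nuclei. Genes observed or awaited in fewer nuclei could not be called, so the smaller counts do not show that their ratios failed. The counts were 169 higher and 177 lower without the first fetal library and 112 and 78 without the second, of which 28 and 8 of the higher genes were shared with the 58. With TMM scaling 45 were higher and 109 lower, and with the other fetal classes weighted equally 156 were higher and 67 lower.

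The higher genes with the largest smaller ratio included Foxa1 and genes of several other kinds. Slc38a11, an amino acid transporter gene, had 17 and 35 reads from 6 and 15 nuclei, or 74.4 and 75.9 CPM against 15.7 and 19.0 CPM, a mean of 4.00-fold. Slc45a1, a sugar transporter gene, had 52.5 and 49.8 CPM, from 4 and 8 nuclei, against 9.32 and 12.1 CPM. Kctd19 had 114 and 84.5 CPM, from 7 and 13 nuclei, against 24.3 and 22.1 CPM. In each of these 3 genes both class 13 values lay above both values of the other nuclei, as the rule that chose them favours.

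Fxyd6, which encodes a regulator of the sodium pump, had 48.1 and 60.7 CPM, from 5 and 9 nuclei, against 13 and 14.8 CPM, and Gucy2g, a membrane guanylate cyclase gene, had 131 and 117 CPM against 41.2 and 43.8 CPM. Acsbg1, an acyl-CoA synthetase gene, had 96.3 and 108 CPM against 29.6 and 37.5 CPM. Read at gene starts alone, Slc38a11, Fxyd6, Acsbg1 and Muc4 lay below the other nuclei, at -0.086, -1.21, -0.25 and -2.61 on the log2 scale. Muc4, a membrane mucin gene of epithelia, had the largest mean ratio of the 15 genes, 4.34-fold, but its 19 and 23 reads came from 3 and 6 nuclei. Degs2 (2.87-fold) and Ms4a15 (3.19-fold) rested on 6 nuclei in the first library, and Dars, Gm39270, Fmo2 and Eftud2 made up the 15 genes with the largest smaller ratio, from 2.63-fold to 3.20-fold. Foxa1 and Gucy2g had reads in the most nuclei among the named genes apart from Ttc6, Gucy2g in 14 and 21.

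The lower genes included Krt14 and Trp63 of the basal list and Csn3 of the luminal progenitor list. Thbs1, which encodes the matrix protein thrombospondin 1, had 15 and 34 reads, or 65.6 and 73.7 CPM against 429 and 468 CPM, and it kept its call in every setting but the one that read gene starts alone. Krt14, a basal keratin, had 2 reads in each library, 8.75 and 4.33 CPM against 55.3 and 47.9 CPM. Trp63, which was lower by the rule but not among the 10 with the largest smaller ratio, had 8 and 24 reads, 35.0 and 52.0 CPM against 137 and 148 CPM. Csn3, which encodes kappa-casein, had 2 and 5 reads, 8.75 and 10.8 CPM against 39.8 and 57.7 CPM. Krt14 and Csn3 lost their calls with each nucleus counted once, with the other fetal classes weighted equally and in deeper nuclei. They also lost them without the flanks of the span, at gene starts alone and with either fetal library left out. Cd38, which encodes an ectoenzyme of NAD metabolism, had no read in the first library and 2 in the second, against 38.7 and 51.5 CPM in the other nuclei. With Thbs1, Krt14, Csn3 and Cd38, the genes Pcdh18, Tmprss5, Sh3tc1, Slc18a2, Hsf2 and Fut9 made up those 10, and in the first library 0 to 5 of 40 nuclei held a read of any one of the 10.

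**Figure D3:**
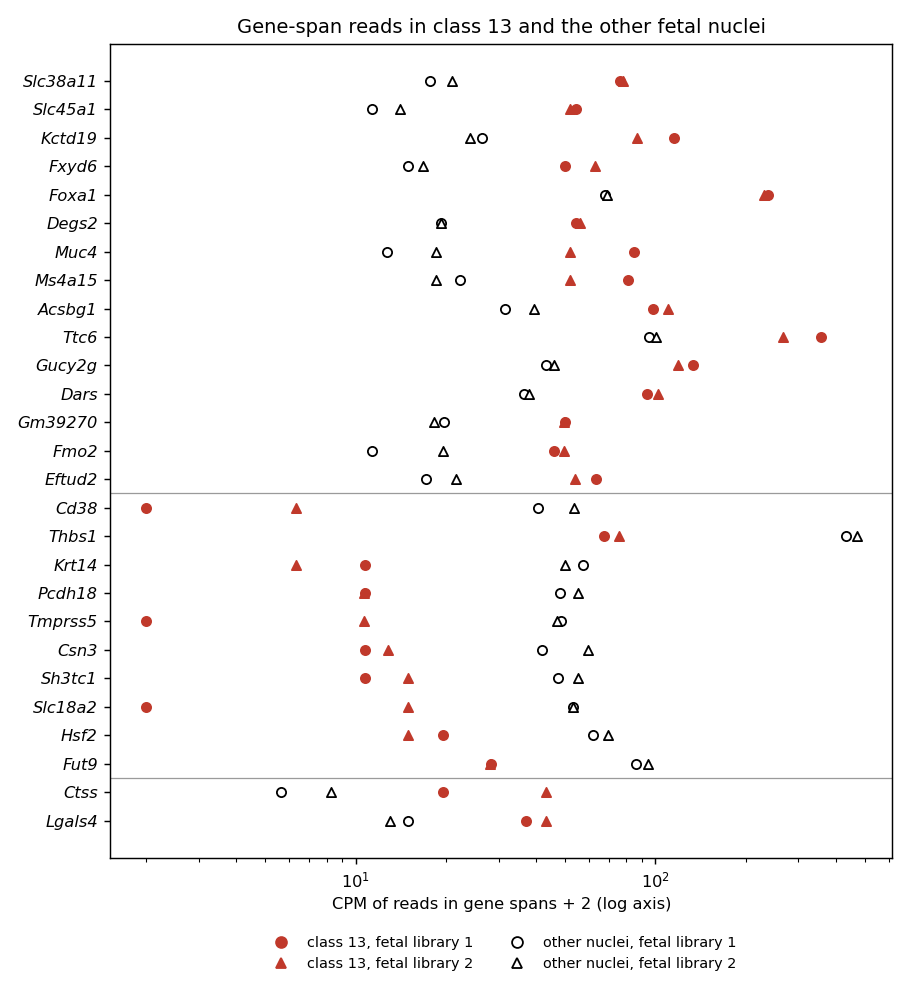
Gene-span reads of the named genes (x axis, CPM + 2 on a log axis), red for class 13 and open for the other fetal nuclei, circles for the first and triangles for the second fetal library. The panels from top to bottom hold the 15 higher genes, the 10 lower genes, and Ctss and Lgals4. In every gene both class 13 values lie on one side of both open symbols, as the choice of the called genes favours.

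Read by lineage lists, class 13 had less than the other fetal nuclei in the sums of the basal and progenitor lists, and the mature luminal list gave no one direction. Beside the counts that follow, 58 of all 9373 tested genes were higher and 83 lower, 2964 lay above and 2561 below the other nuclei in both libraries, and of all 21883 genes 4649 lay above and 6815 below in both. Of 10 basal genes, 0 were higher and 2 were lower (Krt14 and Trp63), 6 lay below the other nuclei in both libraries and 0 above in both, and their summed level was 284 and 347 CPM against 558 and 593 CPM. Of 10 luminal progenitor genes, 1 was lower (Csn3) and none higher, with 425 and 550 CPM against 631 and 648 CPM in sum. The other fetal nuclei were not alike in that sum. Over all libraries it was 513 CPM in class 13, below 718 CPM in class 5 and 809 CPM in class 9. It was above the 406 CPM of class 4, the 400 CPM of class 12 and the 187 CPM of class 6. Of 9 mature luminal genes, 6 were tested and 1 (Foxa1) was higher, 3 lay above and 1 below the other nuclei in both libraries, and the sum of 652 and 969 CPM, which includes the 236 and 228 CPM of Foxa1, stood beside 603 and 668 CPM. The median log2 ratio of that list was -0.39 in the first library and 0.56 in the second. Esr1 had 78.8 and 189 CPM against 114 and 128 CPM, so its 2 libraries fell on opposite sides. Pgr had 43.8 and 54.2 CPM against 60.5 and 61.2 CPM, Prlr 56.9 and 84.5 CPM against 55.9 and 70.7 CPM, and Tbx3 158 and 254 CPM against 207 and 226 CPM.

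Summed over all libraries, the mature luminal list was at 869 CPM in class 13, the fifth value of the 14 classes, after 1543 CPM in class 2, 1428 CPM in class 11, 1148 CPM in class 14 and 1048 CPM in class 10. With 1 member called, the list does not give the class that name. Classes 2 and 11 are called mature luminal-like below on the same list, and classes 3 and 7 luminal progenitor-like and classes 1 and 8 basal-like on theirs.

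The blood cell, endothelial and stromal lists, cells that a gate might let through, held no gene called higher. Of 18 myeloid genes, 1 was tested and none was called, 6 lay above and 6 below the other nuclei in both libraries, and the sum was 293 and 312 CPM against 250 and 264 CPM. Lyz2 and Tyrobp, a lysozyme and a signalling adaptor of macrophages, had no read, as was true of 3825 of all 21883 genes. No call was made among 16 lymphoid genes (Klrd1 and Ncr1 at 0), 10 mast cell and granulocyte genes (Fcer1a, Mcpt4, S100a9 and Tpsb2 at 0), 10 erythroid genes (Gata1, Hba-a1, Hbb-bs and Alas2 at 0) or 11 endothelial genes, of which 3, 0, 1 and 3 had the reads to be tested. The mast cell and granulocyte sum was 61.3 CPM in the first library and 26 CPM in the second, against 28.9 and 35.3 CPM, so the libraries fell on opposite sides. The lymphoid sum was 267 and 308 CPM against 282 and 289 CPM, the erythroid 245 and 230 CPM against 225 and 227 CPM, and the endothelial 354 and 472 CPM against 370 and 402 CPM. Of 11 stromal genes Vim was lower, Col3a1 and Lum were at 0, and the sum was 411 and 338 CPM against 402 and 421 CPM. With so few reads per gene, the lists show where the sums lie and not that a gene is closed.

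The intestinal list, which Lgals4 belongs to, had 1 member higher of 10, and its sum was 206 and 180 CPM against 138 and 128 CPM. Its members did not move together, with 4 above and 5 below the other nuclei in both libraries and a median log2 ratio of 0.25 and -0.41. Over all libraries that sum was 199 CPM in class 13, the highest of the 14 classes, followed by 193 CPM in class 11 and 180 CPM in class 2. The sums of the periderm (275 CPM), skeletal muscle (222 CPM) and cell cycle (450 CPM) lists were also highest in class 13. Cdx2, an intestinal master regulator, had 18 and 26 reads from 8 and 12 nuclei, or 78.8 and 56.4 CPM against 30.2 and 22.7 CPM, while Krt20 and Fabp2 had no read. The periderm list had no call among 7 genes, with 2 above and 2 below in both libraries, Krt13 and Sprr3 at 0, and a median log2 ratio of -0.30 and 0.21. Its member Krt4, a keratin of moist stratified epithelia, had the highest ratio of any list member, with 6 and 17 reads from 3 and 8 nuclei, or 26.3 and 36.8 CPM against 6.14 and 4.62 CPM. Aif1, a myeloid gene, was next below Ctss and Lgals4 among genes not tested, with 6 and 10 reads from 3 nuclei in each library. Krt4 was at 19.8 and 23.4 CPM in the adult mature luminal-like nuclei against 5.92 and 6.33 CPM in other adult nuclei, and Cdx2 at 53.3 and 52.2 CPM against 17.4 and 15.9 CPM. Both were thus higher in the adult classes 2 and 11 as well, which the rule for class 13 did not use.

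Adult nuclei gave a wider view of the same overlap. Of the 58 genes higher in class 13, 14 were at least 2-fold higher in adult classes 2 and 11 than in other adult nuclei, in both adult libraries, and 0 were 2-fold lower, where 90 of all 9373 tested genes (0.96%) were that much higher. Of the 83 genes lower in class 13, 28 were at least 2-fold lower there and 0 higher, against 254 of 9373 (2.71%). Turned round, the 90 genes chosen in the adult classes 2 and 11 had a median log2 ratio in fetal class 13 of 0.51 and 0.53. Of these, 56 lay above and 8 below the other fetal nuclei in both libraries, and the same 14 were called higher and 0 lower. The 67 genes chosen in adult classes 3 and 7 had medians of -0.40 and -0.45, and the 291 chosen in adult classes 1 and 8 had medians of -0.44 and -0.49, against 0.01 and 0.05 over all genes tested. Those 2 sets were chosen against other adult nuclei that include classes 2 and 11. Their genes thus lean to low in classes 2 and 11 by construction, and their medians are not separate from those of the 90 genes. The adult and fetal values come from separate libraries, but the deposited classes run across all nuclei.

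Krt7, a keratin of simple and luminal epithelium, and Cmtm8 are examples chosen after their values were seen. Krt7 had 14 and 49 reads from 7 and 17 nuclei of class 13, or 61.3 and 106 CPM against 29.3 and 26.5 CPM, and 181 and 153 CPM in adult classes 2 and 11 against 65.8 and 69.5 CPM. Cmtm8 had 158 and 128 CPM in class 13 against 50.5 and 57.7 CPM in the other fetal nuclei, with 152 and 156 CPM in adult classes 2 and 11 against 89.2 and 72.4 CPM.

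Some distal regions stood out in class 13, by a rule that asked for the same in both fetal libraries. The authors deposited 145453 distal regions of 1000 bases, and a region was tested with at least 8 reads in class 13 and at least 3 in each fetal library. At 4-fold or more in both libraries, in CPM of all reads, 329 of 5890 tested regions were higher (5.59%). The median log2 ratio of tested regions was 0.53, in a test that takes regions by their reads in class 13. At the same fold 3 regions were lower, a count held down by that read minimum: it was 11 at 0.5 of the minimum and 1690 with none. TMM scaling, which moved the median to -0.51, left 74 higher and 50 lower, all 74 among the 329, and with each nucleus counted once 114 were higher, 79 of them among the 329. Without the first fetal library 772 were higher and without the second 330, of which 210 and 73 were among the 329. Just inside the threshold, 75 regions lay within 0.1 on the log2 scale, and 61 lay as close outside it. Of the 329 regions, 243 had their highest level over all libraries in class 13, as their choice favours, and 173 (52.6%) lay in protein-coding genes. The others were a median of 33592 bases from the nearest such gene. Neither count was set beside its share of all tested regions, so neither sets the 329 apart.

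The region with the largest smaller ratio was chr9:61808059-61809058, 104225 bases from Rplp1, a ribosomal protein gene. It held 10 and 26 reads from 5 and 11 nuclei, or 34.0 and 42.5 CPM against 0.698 and 0.922 CPM in the other fetal nuclei. In adult classes 2 and 11 it was at 20.7 and 21.8 CPM against 1.27 and 1.62 CPM in other adult nuclei, so the same region stood out in both stages.

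A region at chr3:34747344-34748343, 94883 bases from Sox2, a pluripotency and progenitor factor gene, held 12 and 16 reads, or 40.8 and 26.1 CPM against 0.349 and 0.395 CPM. The adult level there was lower, 4.00 and 3.91 CPM in classes 2 and 11 against 1.15 and 0.629 CPM. A region at chr14:59532558-59533557 in Cab39l, which encodes a scaffold of the LKB1 kinase, held 8 and 15 reads, 27.2 and 24.5 CPM against 0.349 and 0.263 CPM. Its adult values were 13.9 and 14.7 CPM against 1.02 and 2.52 CPM. The rest of the first 8 regions were chr14:48926222-48927221 near Exoc5, chr11:88394072-88395071 in Msi2, chr14:117401685-117402684 in Gpc6, chr14:12715823-12716822 in Cadps and chr19:41275554-41276553 in Pik3ap1, each with 5 to 8 reads in the first and 11 to 14 in the second library. All 8 regions had their highest level of the 14 classes in class 13, as their choice favours.

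Most distal regions that stood out in fetal class 13 also stood out in the adult mature luminal-like classes. Of the 329, 197 (59.9%) were at least 2-fold higher in adult classes 2 and 11 than in other adult nuclei, in both adult libraries, against 11.0% of all tested regions, and 1 was 2-fold lower, against 5.72%. For adult classes 3 and 7, 2 were higher (background 4.36%) and 164 (49.8%) were lower, against 8.62%. For adult classes 1 and 8, 0 were higher (background 3.16%) and 193 (58.7%) were lower, against 16.8%. The other adult nuclei of these comparisons include classes 2 and 11, so a region high there leans to lower here by construction. The lower counts are thus not separate from the 197. Across the 5890 tested regions the mean fetal ratio of class 13 and the mean adult ratio of classes 2 and 11 had r = 0.605, and the 2 fetal libraries had r = 0.691, both descriptions across regions that share depth. Tested regions needed class 13 reads in both fetal libraries. Where the other fetal nuclei had few reads, both ratios were thus high by that choice, so the second value does not measure how well the libraries repeat. Without the first fetal library 48.8%, and without the second 37.9%, of the regions then called were higher in adult classes 2 and 11.

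**Figure D4:**
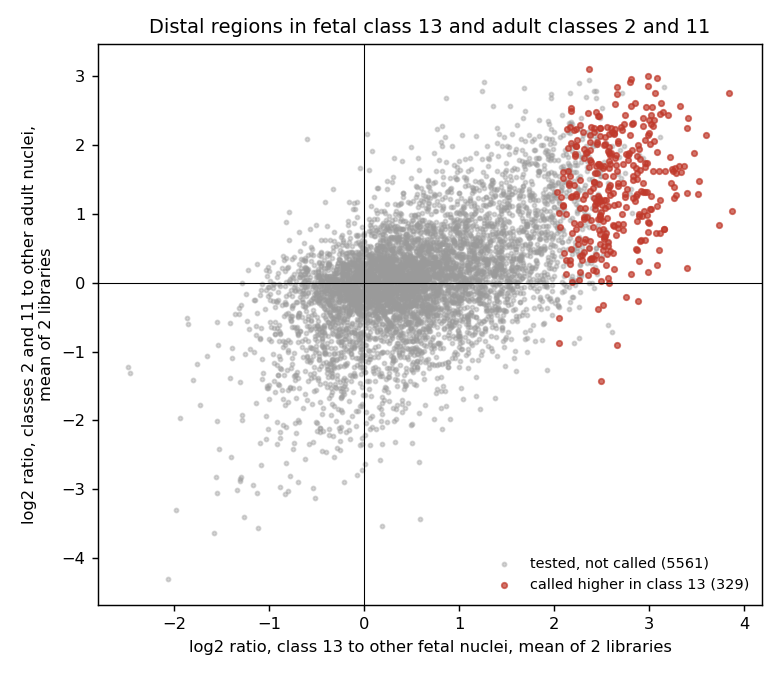
Tested distal regions by their log2 ratio in fetal class 13 to other fetal nuclei (x axis, mean of 2 libraries) and in adult classes 2 and 11 to other adult nuclei (y axis, mean of 2 libraries), with the 329 regions called higher in class 13 marked. The marked regions lie mostly above 0 on the y axis, and 197 of them were at least 2-fold higher in adult classes 2 and 11 in both adult libraries.

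Promoter regions were judged at a lower fold than distal regions, and a larger share of them had the reads to be tested. The counts of the 2 kinds therefore do not show which moved more. Of 7085 tested among 19204, 128 were at least 2-fold higher in both fetal libraries (1.81%). Of those, 107 had their highest level over all libraries in class 13, as their choice favours, and this was not set beside its share of all tested regions. At the same fold 9 were lower, which became 84 at 0.5 of the read minimum and 1223 with none. The ratios of the 2 fetal libraries had r = 0.203 across the tested promoter regions, and the mean fetal ratio and that of adult classes 2 and 11 had r = 0.205. With TMM scaling 86 were higher and 27 lower, with each nucleus counted once 56 were higher, and without the first or the second fetal library 418 and 595 were. In adult classes 2 and 11, 18 of the 128 (14.1%) were at least 2-fold higher, against 0.494% of those tested (4.55% and 0.840% of the regions called without the first or the second fetal library), and 1 was 2-fold lower (background 1.34%). For adult classes 3 and 7, 0 of the 128 were higher (background 0.311%) and 16 (12.5%) were lower, against 0.381%. For adult classes 1 and 8, 0 were higher (background 0.875%) and 26 (20.3%) were lower, against 1.61%. As for distal regions, classes 2 and 11 are among the other adult nuclei there, so these lower counts are not separate from the 18. The region with the largest smaller ratio was chr2:163493608-163494607 at R3hdml, with 8 and 12 reads, 27.2 and 19.6 CPM against 1.22 and 0.395 CPM. Its adult values were 32.7 and 26.9 CPM in classes 2 and 11 against 4.46 and 3.51 CPM. The Cmtm8 region at chr9:114842003-114843002 followed with 20.4 and 21.2 CPM against 2.44 and 0.987 CPM, and 20.7 and 19.8 CPM against 3.57 and 1.62 CPM in the adult. Regions at Pxylp1, Sys1 and Serp2 were next, with 3 to 6 reads in the first and 6 to 12 in the second library.

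To see how far single nuclei carried this, regions were chosen from the adult libraries alone, as distal regions at least 4-fold higher in the named adult classes in both libraries, with at least 20 reads there. For the mature luminal-like classes 2 and 11 there were 859 such regions. A class 13 nucleus had a median of 0.347% of its reads in them in the first fetal library and 0.426% in the second, against 0.0660% and 0.0684% in the other fetal nuclei and 1.67% in adult class 2 of both adult libraries. The 268 regions of the luminal progenitor-like classes 3 and 7 took 0.0478% and 0.0462% of class 13 reads against 0.222% and 0.202%. The 1453 regions of the basal-like classes 1 and 8 took 0.196% and 0.187% against 0.478% and 0.600%. Class 13 thus lay above the other fetal nuclei for the first set and below them for the other sets, and below the adult classes for the first. The adult level in a set is raised by the choice of its regions on those same adult nuclei, so the distance to it is not a measured result.

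**Figure D5:**
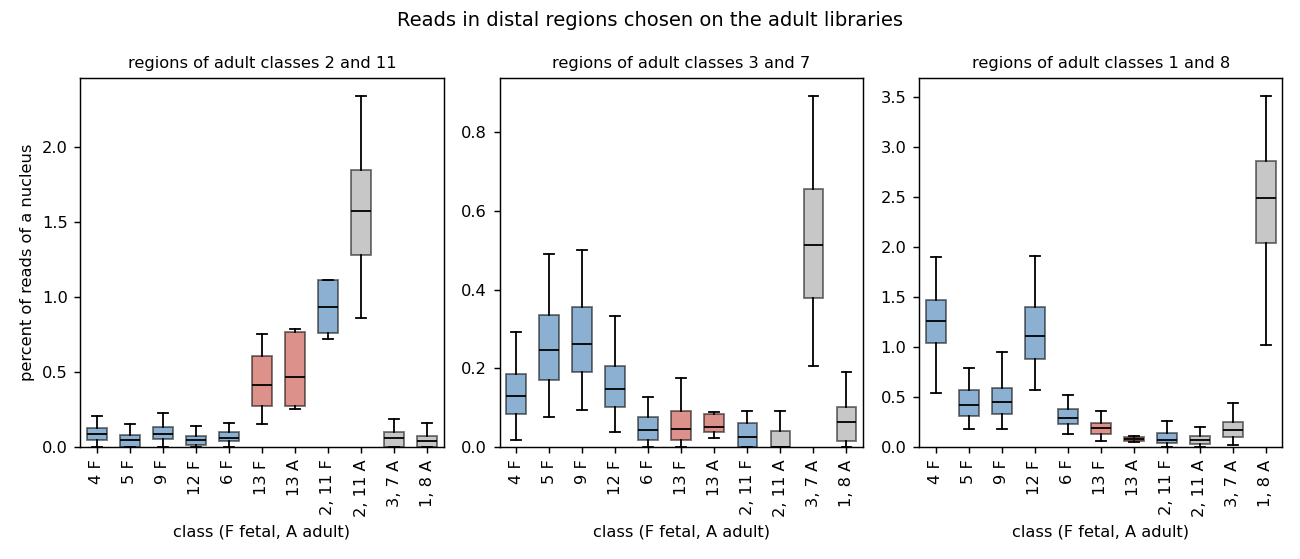
Percent of the reads of a nucleus (y axis) in distal regions chosen on adult mature luminal-like classes 2 and 11, luminal progenitor-like classes 3 and 7, and basal-like classes 1 and 8 (left, middle and right), by class and stage (x axis, F fetal and A adult), as boxes of the quartiles with the median and whiskers from the 5th to the 95th percentile over nuclei. Fetal class 13 lies on the left between fetal classes 4, 5, 6, 9 and 12 below it and the fetal and adult nuclei of classes 2 and 11 above it, at library medians of 0.347% and 0.426%, and low in the other 2 panels. In each panel the adult nuclei on which the regions were chosen are raised by that choice.

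Single class 13 nuclei mostly lay between the other fetal and the adult mature luminal-like nuclei. The 95th percentile of the other fetal nuclei was 0.219% and 0.200% in the 2 libraries, and 34 of 40 and 55 of 66 class 13 nuclei were above it. The 5th percentile of adult classes 2 and 11 was 0.856%, which 1 and 4 class 13 nuclei reached, so 33 and 51 lay between those marks and none reached the adult median of 1.57%. Both adult marks come from the nuclei on which the regions were chosen, which raises them, so a place below them was favoured by the choice. The Foxa1 motif score reached further into the adult range: 35 and 56 nuclei were at or above the adult 5th percentile of 1.29, and 15 and 24 were at or above the adult median of 3.94.

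Whether single nuclei were high for regions of more than 1 lineage was read from the same shares. The share in the mature luminal-like regions was above the median of the other fetal nuclei in 40 of 40 and 65 of 66 class 13 nuclei. For the luminal progenitor-like and for the basal-like regions it was above that median in 0 of the 106. The fetal nuclei of class 6, a class found in both stages, were low for both of those sets (0.0481% and 0.0330%, and 0.260% and 0.284%) and also for the mature luminal-like regions, at 0.0534% and 0.0609%.

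Within class 13 the Foxa1 score and the share in the mature luminal-like regions had r = 0.462 over 40 nuclei and r = 0.416 over 66. That share also went with the share of all reads in distal regions (r = 0.602 and 0.587), and the Foxa1 score with the distal share (r = 0.236 and 0.440) and with the reads of a nucleus (r = 0.341 and 0.204). The Foxa1 and Fos scores had r of -0.0655 and -0.0155, while the Fos score and the distal share had r of 0.400 and 0.483. These values share the reads of the same nuclei and describe them only.

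The 8 adult nuclei that carry the class had Foxa1 scores from 0.376 to 3.01, all above 0, with a median of 1.79, and 0.203% to 0.786% of their reads in the mature luminal-like regions. Adult class 2 had a median Foxa1 score of 3.82 and adult class 11 of 4.33. In the other direction, 10 fetal nuclei carried class 2 (3 nuclei) or class 11 (7 nuclei), with Foxa1 scores from -0.144 to 6.95 and shares from 0.639% to 1.11%. All 10 lay above the class 13 medians in that share.

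Which class is most like class 13 depended on what was read. Across the 9373 gene spans, class 9 had the highest correlation with it (r = 0.827), then class 5 (0.807) and class 12 (0.771). Across the distal regions it was class 2 (0.593), with classes 11 and 10 at 0.577 each and class 9 close to them at 0.574. These were the tested regions, taken by their reads in class 13. Across motif scores it was class 11 (0.300), then class 2 (0.275) and class 5 (0.264). All 3 measures are across features within pooled profiles, with no replicates behind them, and deeper classes have less counting noise in theirs.

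The class was a fetal one by number. Its share of nuclei was 4.54% (95% exact binomial interval 3.26 to 6.12) and 3.89% (3.02 to 4.93) in the fetal libraries, and 0.243% (0.0894 to 0.529) and 0.0713% (0.00864 to 0.257) in the adult ones. The means were 4.21% ± 0.453 and 0.157% ± 0.122 (SD, n = 2 each). An exact two-sided permutation test over the 4 libraries gave p = 0.333, the smallest value that 2 against 2 allows, and Fisher's exact test between the fetal libraries gave p = 0.465 for those libraries only. The intervals cover counting error only. The labels call the libraries biological replicates but do not say how many animals each pooled, so spread between them may be partly technical.

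Class 13 nuclei were close to the other fetal nuclei in depth and lower in the share of reads at distal regions. Its nuclei had a median of 5991.5 and 7666.5 reads, against 5522.5 and 7488 for the other fetal nuclei, and ranged from 2389 to 18493 and from 2421 to 29201. A median of 36.5% and 35.4% of its reads lay in distal regions, against 41.4% in both libraries, while the promoter share was 23.0% and 22.9% against 24.3% and 22.5%. Set beside other fetal nuclei of the same library within 10% of their depth, 39 of 40 and 59 of 66 class 13 nuclei had the lower distal share, by a median difference of -5.62 and -5.94 percentage points. The part of that lower distal share in the values above was not tested.

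In combinatorial barcoding 2 nuclei can carry the same barcodes. The share of reads that started under at least 5 reads of the same nucleus had a median of 0.203% in the first library against 0.204% at matched depth, and 0.262% against 0.208% in the second, and class 13 was above its matched value in 18 of 40 and 36 of 66 nuclei. Its nuclei came from 14 of 16 and 16 of 16 tagmentation wells, at 0% to 13.2% and 0.787% to 7.19% of a well, and from 40 and 60 of 768 PCR wells. No cell barcode was shared between libraries, and no doublet caller was run. Over all 4 libraries the nuclei held 6028168, 15801908, 13588107 and 19304830 reads, and class 13 held 293810 and 611892 in the fetal ones.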

How the data were processed

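Single-nucleus ATAC-seq reads of 2 fetal and 2 adult libraries were analysed. The deposited read files list aligned reads by nucleus on mm10, both ends of a pair as separate reads, and reads were counted here as whole-number counts per nucleus, gene span and deposited region. The submitters' processing notes name Bowtie2, MACS2 and bedtools with no role, and the clustering method and motif collection are not given in the sources used here. The deposited chromVAR score per nucleus and motif, and the class, were used as the authors gave them. Reads of barcodes with a class made up 94.3, 95.3, 86.9 and 87.6% of the reads in the files.

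Reads overlapping a feature by at least 1 base were summed per library and class. Gene spans came from RefSeq (GRCm38.p6, the same build), with 2000 bases on either side, scaled to CPM of reads in gene spans, and regions were scaled to CPM of all reads of the nuclei. Ratios are of class 13 to the other fetal nuclei of the same library on the log2(CPM + 2) scale, which understates changes of low features. Named genes were the 15 higher and 10 lower with the largest smaller ratio of both libraries, the list members with the highest ratio, Ctss and Lgals4. Named motifs were the 10 highest and 10 lowest. The members, lists and call rules were chosen with earlier results of these data known. The call rules for genes, distal regions and motifs were run on simulated data with planted changes larger than the thresholds. Reads were drawn as pooled sums, without the clumping of reads in single nuclei. How the rules treat changes near the thresholds, or features carried by few nuclei, is not known from that run. No test was run of class 13 against other classes, and only its share of nuclei was tested over libraries. Alternatives were another pseudocount, read minimum, scaling (TMM from edgeR 4.0.16 in R 4.3.3), flank, read position, counting each nucleus once, equal weight of classes, deeper nuclei and each fetal library left out. Counting and plotting ran in Python 3.11.15, with pandas 2.3.3, scipy 1.17.1 for intervals and Fisher's test, numpy 2.4.6 for sums, and matplotlib 3.10.9 for figures. Sequences of distal regions were not used here.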

Additional observations from a re-analysis of the deposited data

How the results depend on the processing

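Counts of called features moved with the way of counting, the scaling and the libraries used, and reads per feature in 106 nuclei limit them. Genes called higher (58) numbered 3 with each nucleus counted once, 20 from gene starts alone, 156 with classes weighted equally, 122 at 0.5 of the read minimum and 222 with no minimum, and 112 to 169 with 1 fetal library left out. Genes called lower (83) numbered 4, 17, 202 and 700 with once-counting, gene starts, 0.5 of the minimum and no minimum, and 78 to 177 with 1 library left out. Distal regions called higher (329) numbered 114 with each nucleus counted once, 74 with TMM factors, which shifted the median log2 ratio of tested regions from 0.53 to -0.51, 672 at a pseudocount of 0.5, and 330 to 772 with 1 library left out, and 37.9% to 48.8% of those were higher in adult classes 2 and 11. That percentage was between 53.9 and 66.7 under the other alternatives, an addition made after seeing the data. Promoter regions called higher (128) numbered 56, 291, 196, 221 and 225 with once-counting, equal weight, pseudocount 0.5, 0.5 of the minimum and no minimum, and 418 to 595 with 1 library left out, and the percentage higher in adult classes 2 and 11 was 8.93 with once-counting, 8.25 with equal weight and 0.840 to 4.55 with 1 library left out. Motifs called higher numbered 22 to 32, and lower 9 to 11, with 1 library left out. The Foxa1 score difference (5.28) was 6.23 in nuclei at or above the median depth and 4.96 to 5.59 by library. The highest likeness was 0.593 (class 2) over distal regions and 0.300 (class 11) over motifs in place of 0.827. On the log2 scale Lgals4 was -0.025 with each nucleus counted once, and from gene starts alone Slc38a11 was -0.086, Fxyd6 -1.21, Muc4 -2.61, Acsbg1 -0.25 and Ctss -0.30. Read minimums stayed the same when each nucleus was counted once, where they counted nuclei, and when 1 library was left out. Some features could thus not be called in those settings. The cause of these changes was not tested, apart from fewer libraries, features or reads entering. The fetal minus adult share (4.06 percentage points) was 3.74 to 4.38 with 1 library left out. With the replicate number as a block it was 4.06 with p = 0.5 by exact permutation within pairs (differences of 4.29 and 3.82), the smallest p that 2 pairs allow. Replicate numbers here name libraries and the labels do not say that they pair them.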

Other observations

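A read on the Y chromosome was present in 41 of 106 fetal nuclei of class 13 (38.7%) and in 600 of 2471 other fetal nuclei (24.3%), at median depths close to each other, and the labels do not give the sex of the pooled animals. The 2 class 13 nuclei of the second adult library had 19.8% and 20.9% of their reads in distal regions, below the 29.9% to 38.2% of the 6 in the first adult library. The cell cycle list, of 10 genes, had no call and a summed level of 389 and 485 CPM in class 13 against 404 and 390 CPM in the other fetal nuclei. The housekeeping list, of 8 genes, had no call and 556 and 607 CPM against 692 and 626 CPM. The skeletal muscle, neuronal, melanocyte and Schwann cell, Merkel cell, tuft cell, hair follicle, keratinocyte and adipocyte lists had no call either, with 1 to 4 tested genes in each.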
